A study of Mus musculus with 19 samples.

Results

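Klf7 and Gbx2 encode transcription factors of the nervous system, and their genes lie on mouse chromosome 1, one on each side of Epha4. They were chosen by name, as the rows whose only platform gene symbol is Klf7 or Gbx2, and each gene had 1 probe set (17213666 for Klf7, 17215601 for Gbx2). These are 2 of 8751 probe sets and 2 of 1121 genes with a symbol of their own. The values came from forebrain total RNA on 19 Affymetrix Mouse Gene 2.0 ST arrays, which read many probes along a gene and report 1 log2 value per probe set. Mice lacked the receptor tyrosine kinase EphA4 (labelled EphA4 knockout, KO) or were wild-type littermates (WT), all of a strain labelled Mixed BL6/10 and kept in 12 h light and 12 h dark. The groups were 5 sleep-deprived KO arrays, 4 undisturbed KO controls, 6 sleep-deprived WT arrays and 4 undisturbed WT controls, and sleep deprivation lasted 6 h. The labels give no age and do not describe the knockout allele or the cells in which it acts. The labels list each array as a sample of its own without naming the animal behind it, so the spread that the p-values rest on is that between samples and may be technical.

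KLF7 is a Krüppel-like factor with zinc fingers at its carboxyl end that binds GC-rich and CACCC elements. In mice it is needed for the outgrowth of olfactory and other axons and for expression of the neurotrophin receptor TrkA in sensory neurons. GBX2 is a homeodomain protein that, with OTX2, sets the boundary between midbrain and hindbrain in the embryo, and in the forebrain it marks developing thalamic neurons and is needed for their axons to reach the cortex. EphA4 binds ephrins and steers growing axons.

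Epha4 was not among the named probe sets, and the genotype labels were therefore not checked against its level. The submitters warn that the deposited tables are not complete. A gene was counted as measured here only where a deposited probe set bore its symbol alone. Genes missing from the deposited tables, or only on probe sets with several symbols or none, were thus counted as not measured. Array medians ran from 5.90 to 6.07 and correlations between arrays from 0.981 to 0.993. Of 108 marker genes in 11 lists for forebrain regions, neighbouring brain regions and brain cell types, 2 were measured, Penk (striatum) and Slc32a1 (inhibitory neurons). Their mean log2 levels were 11.2 and 7.32, and neither passed the test in any of the 7 comparisons (smallest adjusted p = 0.74 for Penk and 0.95 for Slc32a1, limma). None of the 10 thalamic markers was measured, so the amount of thalamus in each sample, and its part in the Gbx2 values, was not tested. In bulk tissue, fewer cells of a type and less RNA per cell cannot be told apart.

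The Klf7 probe set read in the dim part of the scale in every group. Its mean over all arrays was 5.21, above the mean of 35.0% of probe sets, and it lay below the array's median on all 19 arrays. Probe sets differ in brightness, so this places the signal on the scale and does not rank the transcript against other genes. In sleep-deprived KO mice its log2 values were 4.89, 5.56, 5.14, 5.30 and 5.12, and in KO controls 5.22, 5.41, 4.95 and 5.25. In sleep-deprived WT mice the lowest, median and highest values were 4.94, 5.15 and 5.34, against 5.56, 5.40, 5.25 and 5.20 in WT controls. The ranges of every pair of groups overlapped. The group means were 5.20 ± 0.25 (SD, n = 5) in sleep-deprived KO, 5.21 ± 0.19 (SD, n = 4) in KO controls, 5.12 ± 0.14 (SD, n = 6) in sleep-deprived WT and 5.35 ± 0.16 (SD, n = 4) in WT controls. WT controls were thus the highest group and sleep-deprived WT the lowest, with both KO groups between them, and no neighbours in this order differed beyond their spread.

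The Gbx2 probe set read in the middle part of the scale and varied little. Its mean was 6.67, above the mean of 65.7% of probe sets, and it lay above the median on all 19 arrays. In sleep-deprived KO mice its log2 values were 6.52, 6.71, 6.55, 6.67 and 6.63, and in KO controls 6.74, 6.62, 6.59 and 6.75. In sleep-deprived WT mice the lowest, median and highest values were 6.58, 6.75 and 6.84, against 6.62, 6.58, 6.66 and 6.67 in WT controls. Here too the ranges of every pair of groups overlapped. The group means were 6.62 ± 0.08 (SD, n = 5) in sleep-deprived KO, 6.68 ± 0.08 (SD, n = 4) in KO controls, 6.74 ± 0.09 (SD, n = 6) in sleep-deprived WT and 6.63 ± 0.04 (SD, n = 4) in WT controls. Sleep-deprived WT was the highest group and sleep-deprived KO the lowest, with both control groups between them. The spread within groups was 0.077 for Gbx2, smaller than for all but 3.52% of probe sets, and 0.19 for Klf7, larger than for 62.8% of them.

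**Figure D1:**
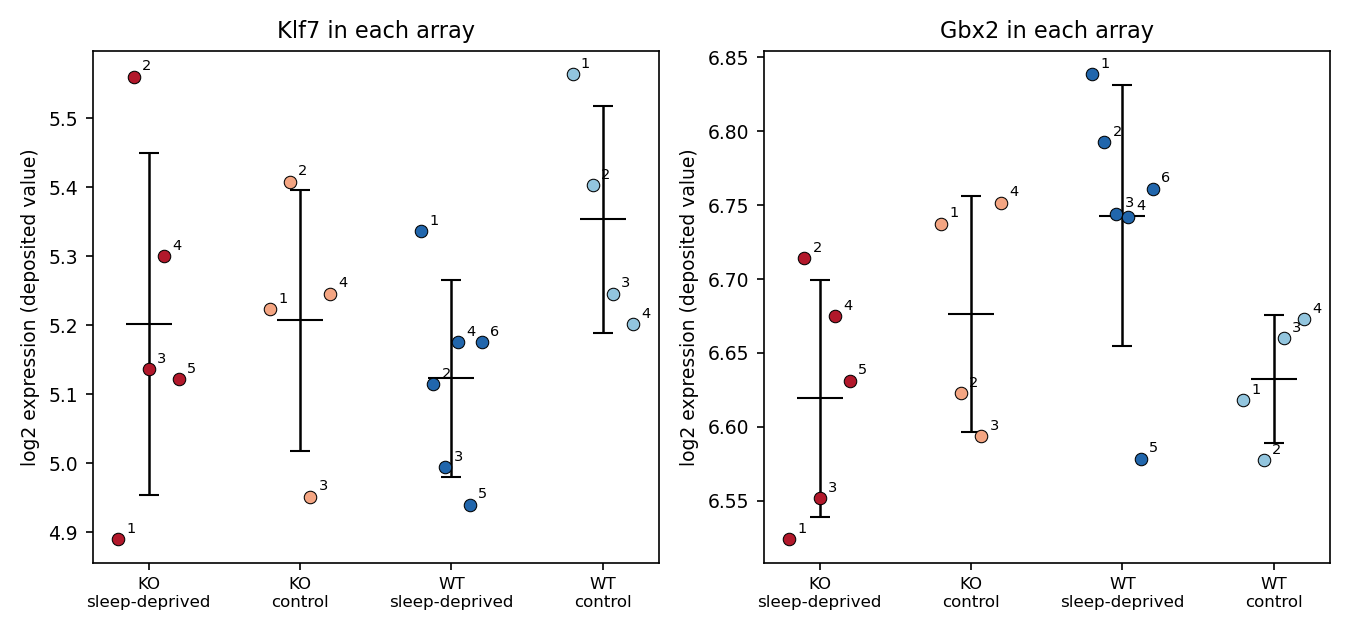
The log2 expression of Klf7 (left) and Gbx2 (right) is plotted for each of the 19 arrays in 4 groups, with replicate numbers beside the points and a bar for the mean ± SD. For both genes the groups overlap. For Klf7, 5 of 6 sleep-deprived WT arrays (all but replicate 1) lie below all WT controls. For Gbx2, 5 of 6 (all but replicate 5) lie above all of them.

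Neither gene passed the test in any of the 7 comparisons. Each gene was tested with limma's moderated test in a fit to all arrays, with p-values adjusted over all 8751 probe sets by the Benjamini-Hochberg method and a threshold of 0.05. All 14 adjusted p-values lay between 0.33 and 0.99, and 0 of 14 unadjusted p-values were under 0.05. The share of all probe sets called was 0.263% for sleep deprivation in KO, 0% in WT and 0.263% averaged over genotypes. It was 1.68% for KO against WT after sleep deprivation, 0% in controls and 0.0114% averaged over conditions, and 0.0686% for the interaction. At an unadjusted p under 0.05 the shares were, in the same order, 11.8%, 7.8% and 7.93% for sleep deprivation, 15.4%, 5.44% and 8.73% for KO against WT, and 11.5% for the interaction.

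The first question was whether 6 h of enforced wakefulness altered either gene. In KO mice Klf7 differed by -0.0054 ± 0.12 (log2, SE; adjusted p = 0.99, limma), a difference whose sign turned with array weights or a replicate block in the fit. In WT mice Klf7 differed by -0.23 ± 0.12 (log2, SE; adjusted p = 0.66, limma), 0.85-fold with a 95% interval from 0.72-fold to 1.01-fold. There, 5 of 6 sleep-deprived arrays lay below every control. An exact two-sided permutation test of the group means gave an unadjusted p = 0.052. In limma, 9.55% of all probe sets had a smaller unadjusted p than Klf7 in this comparison. Averaged over genotypes the Klf7 difference was -0.12 ± 0.08 (log2, SE; adjusted p = 0.79, limma), with a 95% interval from 0.82-fold to 1.04-fold. Gbx2 differed by -0.06 ± 0.07 in KO mice (log2, SE; adjusted p = 0.79, limma), where 2 of 5 sleep-deprived arrays lay below every control. In WT mice Gbx2 differed by 0.11 ± 0.06 (log2, SE; adjusted p = 0.70, limma). There, 5 of 6 sleep-deprived arrays lay above every control (exact permutation test, unadjusted p = 0.052). In limma, 14.3% of all probe sets had a smaller unadjusted p than Gbx2 in this comparison. Averaged over genotypes the Gbx2 difference was 0.03 ± 0.05 (log2, SE; adjusted p = 0.94, limma), with a 95% interval from 0.95-fold to 1.09-fold.

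The second question was whether either gene differed between KO and WT mice. Both genes lie on the chromosome of Epha4, so loss of EphA4 and DNA linked to Epha4 cannot be told apart in this comparison. After sleep deprivation Klf7 differed between KO and WT by 0.08 ± 0.11 (log2, SE; adjusted p = 0.80, limma), and in controls by -0.15 ± 0.13 (log2, SE; adjusted p = 0.94, limma). Averaged over conditions its difference was -0.03 ± 0.08 (log2, SE; adjusted p = 0.94, limma), with a 95% interval from 0.86-fold to 1.10-fold. Gbx2 had its smallest p in the comparison after sleep deprivation. There KO differed from WT by -0.12 ± 0.06 (log2, SE; unadjusted p = 0.053, adjusted p = 0.33, limma), 0.92-fold with a 95% interval from 0.84-fold to 1.00-fold. The exact permutation test of the same difference gave an unadjusted two-sided p = 0.043, the smallest of 12 such tests over both genes, and 16.1% of all probe sets had a smaller unadjusted p in limma. Beside the 2 values of 0.052 above, the other 9 exact permutation tests gave p from 0.21 to 0.96. In this comparison 5 of 6 sleep-deprived WT arrays lay above every sleep-deprived KO array, and WT replicate 5, at 6.58, was the exception. Without that replicate the difference was -0.16 (log2; adjusted p = 0.21, limma). In controls Gbx2 differed by 0.04 ± 0.07 (log2, SE; adjusted p = 0.95, limma), and averaged over conditions by -0.04 ± 0.05 (log2, SE; adjusted p = 0.86, limma).

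The third question was whether KO and WT mice responded differently to the deprivation of sleep (the interaction). For Klf7 the response in KO minus that in WT was 0.23 ± 0.17 (log2, SE; adjusted p = 0.62, limma). For Gbx2 it was -0.17 ± 0.09 (log2, SE; adjusted p = 0.49, limma). Of the sleep-deprived arrays, 2 of 5 in KO and 0 of 6 in WT read above the mean of their own controls for Klf7. For Gbx2 the counts were 1 of 5 in KO and 5 of 6 in WT. The responses share their control arrays with the genotype comparison in controls, so these values are not independent of those above.

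**Figure D2:**
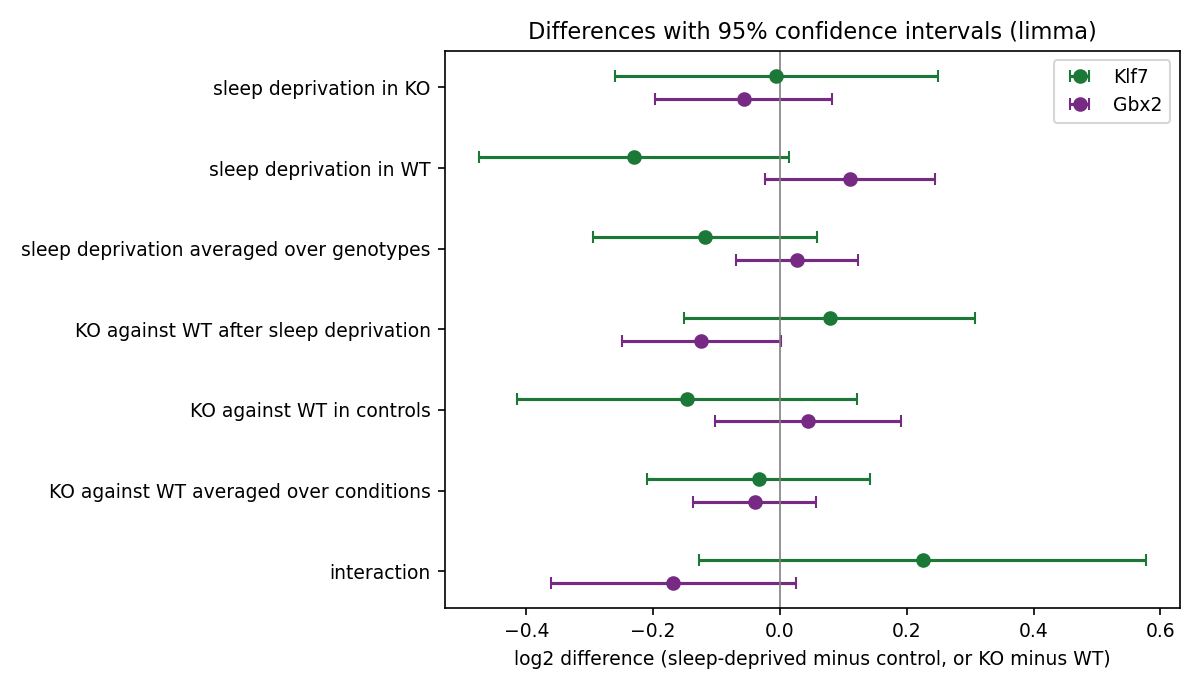
The log2 difference of Klf7 (green) and Gbx2 (purple) is plotted for the 7 comparisons, each with its 95% confidence interval from limma. Every interval includes 0, and those of Klf7 are wider than those of Gbx2 throughout.

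Klf7 and Gbx2 were also compared array by array. Within groups the same array was lowest for both genes in 3 groups: replicate 1 of sleep-deprived KO, replicate 3 of KO controls and replicate 5 of sleep-deprived WT. In WT controls, replicate 4 was lowest for Klf7 and highest for Gbx2. Over the 19 arrays the values had a Pearson correlation of 0.21 (permutation p = 0.38, adjusted p = 0.68) and a Spearman correlation of 0.17 (permutation p = 0.49, adjusted p = 0.77). Pearson's r was 0.31 without the 2 arrays farthest from the Klf7 median. As deviations from group means, Pearson's r was 0.56 (permutation within groups, p = 0.024, adjusted p = 0.15) and Spearman's rho 0.52 (permutation within groups, p = 0.042, adjusted p = 0.25). This r was 0.40 without the 2 arrays farthest out, ran from 0.47 to 0.68 on leaving out each array, and was 0.62 after median centring of the arrays. The use of deviations was chosen after seeing the data, the adjustment was over 6 relations, and neither form passed it. The other 4 relations set each gene against the array median. Over the arrays, Pearson's r with the array median was -0.11 for Klf7 (permutation p = 0.64) and 0.18 for Gbx2 (permutation p = 0.45). As deviations from group means it was -0.01 for Klf7 (permutation p = 0.97) and 0.27 for Gbx2 (permutation p = 0.35).

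**Figure D3:**
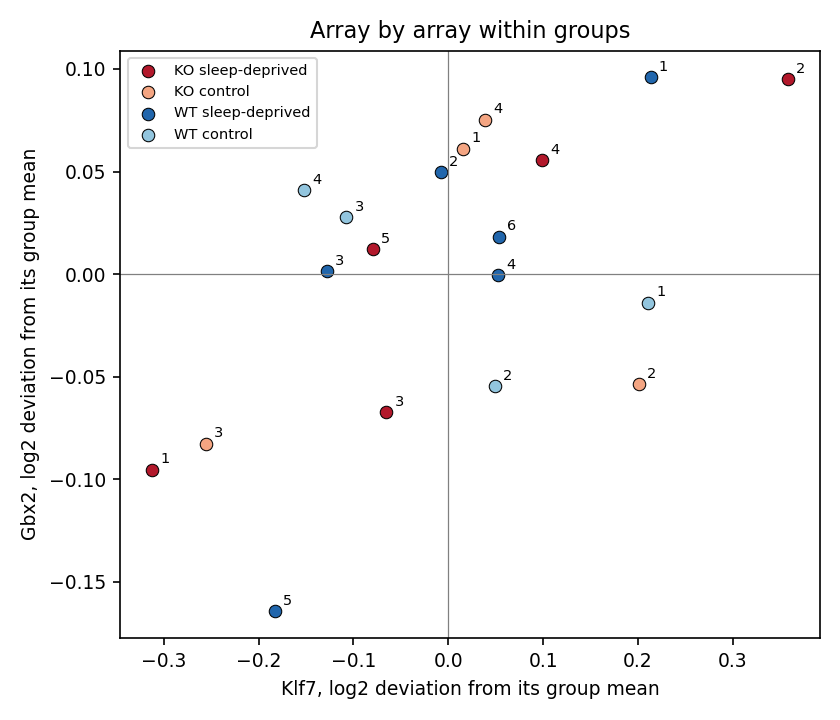
Each of the 19 arrays is plotted by the deviation of its Klf7 (x axis) and Gbx2 (y axis) log2 value from the mean of its group, coloured by group and marked with its replicate number. The arrays spread from lower left to upper right with a Pearson's r of 0.56, and replicate 5 of sleep-deprived WT lies lowest for Gbx2.

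The genes whose values followed each factor most closely were ranked among 758 named genes by Pearson's r over the 19 arrays, as a description. All points share the arrays and their normalization. For Klf7 they were Foxj2, a forkhead transcription factor (r = 0.64), Lin52, a subunit of the DREAM complex (0.54), Lelp1 (0.48), Mrpl48, a mitochondrial ribosomal protein (0.47), and Cyp2c40, a cytochrome P450 (0.47). The most opposed were Igkv6-23, an immunoglobulin kappa segment (-0.63), Heatr5a (-0.53) and Zbed4 (-0.53). The middle 90% of the 758 genes had an r from -0.37 to 0.34 with Klf7. With group means removed, Lin52 ranked 1 and Foxj2 ranked 2, while Lelp1 ranked 41. After median centring of the arrays Zbed4 had an r of -0.26 and ranked 683 of 758, so it was no longer among the most opposed, while Foxj2 ranked 1, Lin52 ranked 2 and Igkv6-23 ranked last. Cyp2c40 had a mean log2 level of 2.89, near the lowest value on any array, 2.18, and Igkv6-23 had a mean of 3.61.

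For Gbx2 the closest genes were Asph, an aspartyl hydroxylase (r = 0.72), Exoc3l4 (0.70), Gng5, a G protein gamma subunit (0.70), Vpreb1, part of the surrogate light chain of B cell precursors (0.68), and Olfr27, an olfactory receptor (0.67). The most opposed were Taf1d, a subunit of an RNA polymerase I initiation factor (-0.76), Fam205a2 (-0.72) and Pcid2, a messenger RNA export factor (-0.66). After median centring of the arrays several of these were less close: r was 0.53 for Asph (rank 22), 0.43 for Exoc3l4 (rank 64), -0.39 for Taf1d (rank 741) and -0.31 for Fam205a2 (rank 718). Gng5, Olfr27, Vpreb1 and Pcid2 then ranked 2, 4, 5 and 755. With group means removed, Exoc3l4 ranked 8, Vpreb1 15, Asph 17, Olfr27 18 and Gng5 21. At the other end, Taf1d ranked 757, Fam205a2 756 and Pcid2 750. Olfr27 had a mean log2 level of 2.77, also near the bottom of the scale. The middle 90% of genes had an r from -0.43 to 0.50 with Gbx2, a wider span than with Klf7. Among all 16 genes named by this ranking, Pcid2 was the 1 that passed the test in any comparison (smallest adjusted p = 0.010, limma). Of all 1121 genes, 11 passed as higher and 1 as lower for KO against WT after sleep deprivation. For sleep deprivation, 4 passed as higher and 0 as lower in KO, and 2 and 1 averaged over genotypes. None passed in the remaining comparisons. The ranking used the same values, so the count among its genes is a description. Gbx2 itself ranked 119 of 758 by its r with Klf7, and 8 with group means removed. In the other direction, Klf7 ranked 218 of 758 by its r with Gbx2, and 22 with group means removed.

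Few genes of the pathways around these factors were measured in the sense given above, which does not mean that the array lacks them. Of 176 genes in 6 lists, 7 had a symbol of their own among the probe sets. None of the 25 other Krüppel-like and Sp factors and none of the 25 signals and thalamic partners of Gbx2 was among them. Of 22 genes linked to KLF7 or to axon growth, Map2, a neuronal microtubule protein, was measured at a mean log2 level of 11.8, and lies between Klf7 and Gbx2 on the chromosome. Of 40 homeobox genes, Irx3 and Cux1 were measured, at 6.68 and 5.23. Of 34 other neuronal transcription factors, Neurod1, Sox4 and Elk1 were measured, at 6.24, 5.86 and 9.38. Of 30 genes of the EphA4 pathway, Chn1, the chimaerin that acts below EphA4, was measured at 7.63. In all 7 comparisons 0 of these 7 genes passed over all probe sets (limma). The smallest adjusted p-value of Elk1 was 0.28, for sleep deprivation in KO (log2 difference 0.20, limma). That of Chn1 was 0.80, for sleep deprivation in WT (log2 difference -0.09, limma). The other genes had theirs in KO against WT after sleep deprivation (limma). These were 0.30 for Neurod1, 0.64 for Irx3, 0.70 for Cux1, 0.71 for Map2 and 0.77 for Sox4. Between KO and WT after sleep deprivation the log2 differences were -0.22 for Neurod1, -0.13 for Cux1, -0.10 for Irx3, -0.05 for Elk1, -0.05 for Map2, 0.02 for Chn1 and 0.09 for Sox4.

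Because both genes flank Epha4, their neighbours were described in the same comparisons. By identifier, 1045 of the 1121 genes were found in the RefSeq gene table of GRCm38.p6, used here only for the order of genes, and 54 of them were on chromosome 1. Klf7 was 12th and Gbx2 23rd in that order, with 10 measured genes between them. The nearest measured genes around Klf7 were Gm3940 and Coq10b, which encodes a coenzyme Q binding protein, before it and Akr1cl and Cryga, a lens crystallin, after it. After sleep deprivation their differences between KO and WT ran from 0.08 to 0.15 on the log2 scale, with a smallest adjusted p of 0.28 for Akr1cl (limma). Around Gbx2 they were Gm5258 and Efhd1, a mitochondrial calcium-binding protein, before it and 5033417F24Rik and Gm7889 after it. There the differences ran from -0.13 to 0.11, with a smallest adjusted p of 0.36 for Efhd1 (limma). Of these 8 neighbours, 0 passed in any of the 7 comparisons.

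Over the 54 genes of the chromosome, 2 passed for KO against WT after sleep deprivation, both higher in KO, and 0 passed in the other 6 comparisons (limma). Over all 1121 genes, 11 passed as higher and 1 as lower in KO after sleep deprivation. The median log2 difference in that comparison was 0.046 over the 54 genes and 0.005 over all 1121, and in controls it was 0.018 and -0.004. The 10 genes between Klf7 and Gbx2 had a median of 0.026 after sleep deprivation, 7 of them with a positive sign. The sign was positive for 35 of the 54 genes and for 52.0% of all 1121. The 2 called genes were predicted genes. Gm5528, the last measured gene before Epha4, had a log2 difference of 0.57 ± 0.12 (SE; adjusted p = 0.022, limma). Gm8618 had a log2 difference of 0.29 ± 0.07 (SE; adjusted p = 0.046, limma). In controls the log2 differences between KO and WT were -0.14 for Gm5528 and -0.01 for Gm8618, and neither passed. Gm8618 missed the threshold on leaving out any array except replicates 3 and 5 of sleep-deprived WT and replicates 2 and 4 of KO controls, with adjusted p from 0.056 to 0.12. Gm5528 missed it without replicates 1 or 3 of sleep-deprived KO or replicates 2 or 4 of sleep-deprived WT, with adjusted p from 0.0501 to 0.056. After median centring of the arrays neither gene passed (adjusted p = 0.052 for Gm5528 and 0.12 for Gm8618), nor did either in a fit to the sleep-deprived arrays alone (adjusted p = 0.091 and 0.13, limma).

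**Figure D4:**
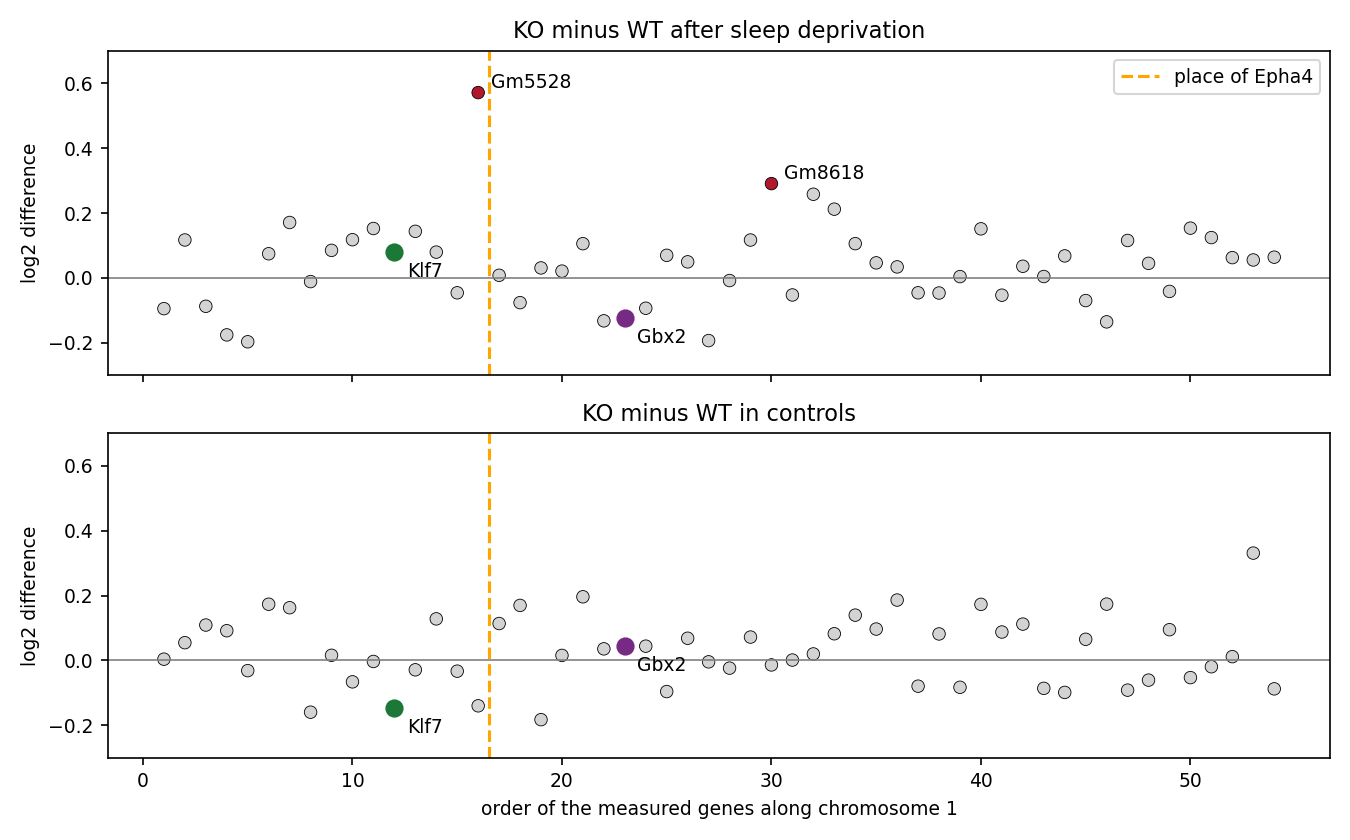
The log2 difference of KO minus WT is plotted for the 54 measured genes in their order along chromosome 1, after sleep deprivation (top) and in controls (bottom), with a dashed line at the place of Epha4. Klf7 (green) and Gbx2 (purple) lie within the spread of the other genes. Of the 2 called genes (red), Gm5528 stands above that spread after sleep deprivation and Gm8618 lies at its upper edge.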

How the data were processed

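The deposited values are log2 expression, 1 value per probe set and array, from 2.18 to 14.2. RMA, oligo and limma are named in the submitters' processing notes, with no versions, and what each did, and the genome build, is not given in the sources used here. All columns belonged to this series. With arrays, precision is limited by how many there are. Arrays were grouped by their titles. A probe set was named only where the platform annotation gives 1 symbol (1308 of 8751, with 1178 holding several and 6265 unnamed here). A gene on several probe sets was represented by its brightest one on average.

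One limma 3.58.1 model in R 4.3.3 held all 19 arrays and a mean for each of the 4 groups, with no covariates. Differences were tested with eBayes and adjusted over all probe sets. Scripts were tested on simulated data. Permutation tests of group means enumerated every arrangement within genotype or condition. Those of correlations used 100000 resamples. Plots were drawn with matplotlib 3.10.9.

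Members, gene lists and rules were chosen with earlier results of these data known. Named genes were the members, the 5 closest and 3 most opposed genes for each (leaving out predicted genes, clones, microRNAs and small nucleolar RNAs), the 2 nearest measured genes on each side, called genes of the chromosome and all measured list genes. Alternatives covered the prior variance, array weights, quantile normalization, median centring, filters on rows, which arrays were fitted, a block for replicate number and omission of each array.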

Additional observations from a re-analysis of the deposited data

Results flagged for a closer look

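Replicate 5 of sleep-deprived WT had a Gbx2 log2 value of 6.58, below the other 5 arrays of its group, which read from 6.74 to 6.84. Its gap to the nearest of them was 0.63 of the group's range, against a critical value of 0.625 in Dixon's test for 6 samples. The ratio thus hardly passed the critical value. It was the 1 group with such an array among the 8 groups tested. Chance alone flags about 1 in 20 groups, so 1 flag among 8 groups is not rare. The same array was also the lowest of its group for Klf7, at 4.94. Its median was 5.94, within the span of the other arrays.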

How the results depend on the processing

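Over 391 recomputed values of Klf7 and Gbx2, 0 passed the threshold adjusted over the rows tested (smallest adjusted p = 0.21). Sign and side of the threshold held in 379, many by construction, as without an array outside the comparison. The 12 exact permutation tests had no adjusted p. For Gbx2, KO against WT after sleep deprivation (-0.12), the test gave an unadjusted p = 0.043, where limma's adjusted p was 0.33. The Klf7 difference for sleep deprivation in KO turned to 0.020 with array weights and to 0.026 with the replicate block, and ran from -0.095 to 0.073 on leaving out single arrays. The Klf7 difference between KO and WT ran from -0.011 to 0.157 after sleep deprivation and from -0.078 to 0.00895 averaged over conditions in the same fits. The cause was not tested. Other differences kept their sign throughout, but several small ones moved by over 1.5 times. Median centring put the Gbx2 differences at 0.0054 for KO against WT in controls, 0.0080 for sleep deprivation averaged over genotypes and -0.070 for KO against WT averaged over conditions. Without single arrays, the Klf7 difference in controls reached -0.061 and its interaction 0.135, and the Gbx2 difference for sleep deprivation in KO reached -0.032. The filter that leaves out the 40% dimmest rows removed Klf7, and averaging a gene's rows was not run, since each gene has 1. For the genes of chromosome 1 called in KO against WT after sleep deprivation, alternatives added after seeing the data gave 1 with quantile normalization, 0 with median centring, 0 with only the compared groups in the fit, 1 with the replicate block and 0 to 2 without single arrays. For the interaction the count was 0 to 1 without single arrays. In the alternatives that tested all 8751 probe sets, the 147 called for KO against WT after sleep deprivation were 36 to 298. The 23 for sleep deprivation in KO were 6 to 43, the 23 averaged over genotypes 9 to 37, and the 6 for the interaction 2 to 41. The 0 in WT were 0 to 3, and the 1 for KO against WT averaged over conditions 0 to 3. With the 1308 rows of 1 symbol, left out of these ranges, 28 were called for KO against WT after sleep deprivation and 0 for the interaction. Replicate numbers did not pair the arrays: 0 of 25 same-numbered pairs had deviations correlated over 0.1, and 0 of 19 arrays correlated best with its own number. The replicate block put neither gene past the threshold. Arrays without detection calls limit what can be said of a gene as dim as Klf7.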
